A study of Homo sapiens with 6 samples.

Results

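Autophagy and lysosome genes encode the machinery that encloses cytoplasm in membrane and digests it in the lysosome. The members were the 38 genes of a list of symbols drawn up by function, with earlier results of these data known. Each matched 1 row of the deposited table of 61806 genes. RNA was sequenced from HFF cells, a cell bank's culture of human foreskin fibroblasts labelled wild type, in 2 groups of 3 libraries each. The UVB + sauchinone group had received 40 mJ per cm2 of UVB, the part of sunlight that damages DNA directly, and 10 µM of the plant lignan sauchinone. The UVB group had received the same irradiation and vehicle. Per the labels' protocols both were cultured for 48 h after irradiation. The protocols also describe a version with 4 h of pretreatment and do not say which version these libraries came from. Irradiation was common to both groups, and cells without UVB were not analysed here. The comparison is thus between irradiated cells given the compound and irradiated cells given vehicle.

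In autophagy a kinase complex led by ULK1 starts the process, and a lipid kinase complex with BECN1 marks the site. ATG9A and ATG2A supply lipid, and a conjugation cascade attaches small ATG8 proteins such as LC3B to the growing membrane. Cargo receptors such as p62, the product of SQSTM1, tether what is to be degraded. The closed autophagosome then fuses with the lysosome, where a proton pump keeps the lumen acid for cathepsins and glycosidases. TFEB and TFE3 are transcription factors that switch on many of these genes when nutrients or lysosomal function fall short. In skin fibroblasts this route is known for clearing proteins and organelles damaged by ultraviolet light.

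All 38 members had enough counts to be tested. With sauchinone 15 members were higher, 7 were lower and 16 did not pass the test, which was edgeR's quasi-likelihood test with a Benjamini-Hochberg adjusted p under 0.05 over 15704 genes. That is 57.9% of the members called, beside 49.6% of all genes tested. Higher calls made up 39.5% of the members and 24.7% of all genes, and lower calls 18.4% and 24.9%. The median log2 fold change was 0.12 for the members and 0.0071 for all genes tested, where a positive value means higher with sauchinone. Because the members were chosen with earlier results of these data known, these shares and medians are not an independent comparison. In 17 members every sauchinone library lay above every UVB library, and in 9 every one lay below. Over all genes the shares were 28.6% and 28.5%, and 26 of 38 members and 57.1% of all genes had no overlap either way. A call together with a change of at least 1.5-fold was seen in 12 of the 38 members and in 25.1% of all genes tested. The calls of all 15 higher members and of the lower member CTSK remained under each of the 17 alternative settings. The other 6 lower members lost the call or changed sign under at least 1 setting.

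**Figure D1:**
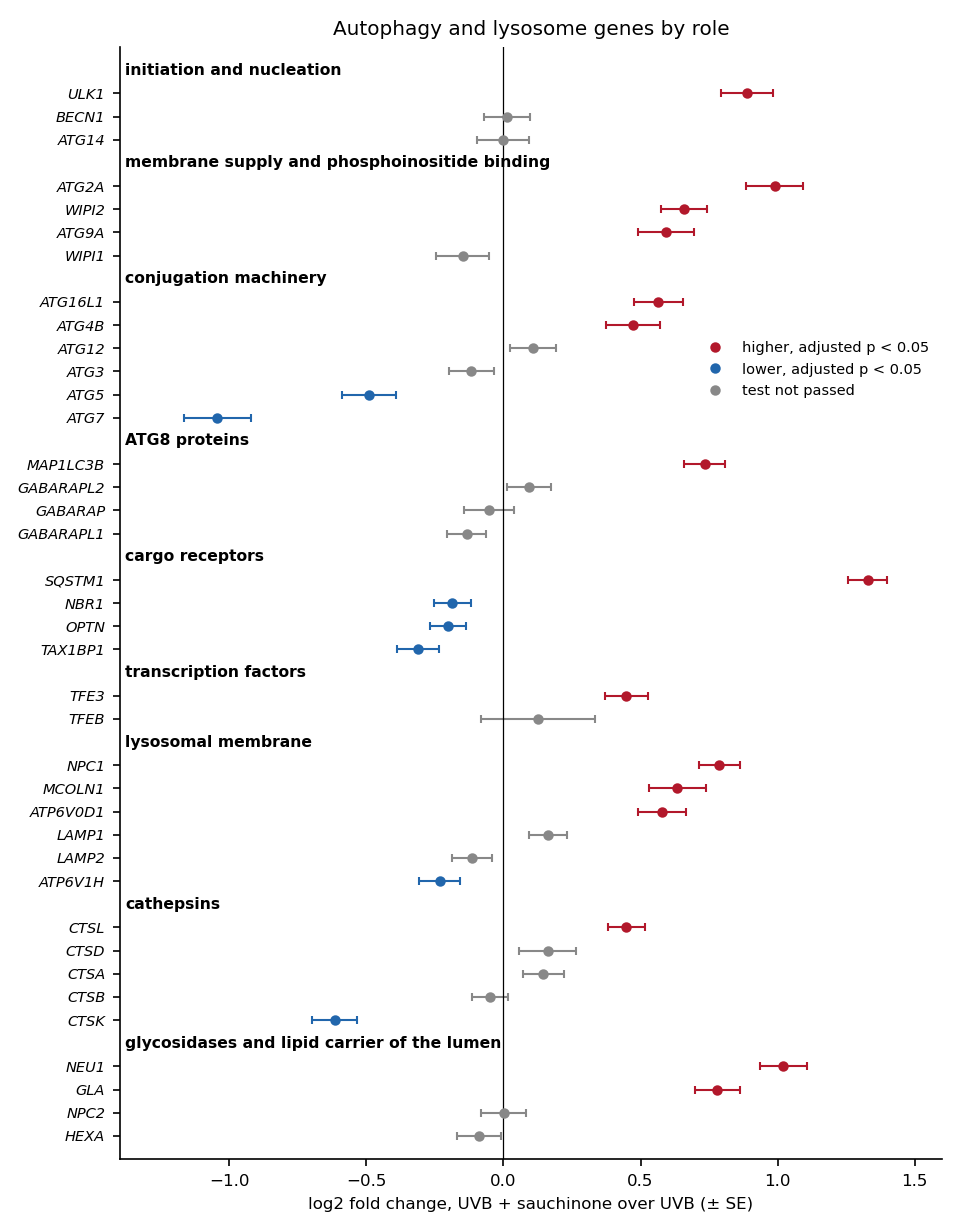
The log2 fold change of each of the 38 members (UVB + sauchinone over UVB, ± SE) is plotted by role, with colour for the edgeR call at an adjusted p under 0.05. SQSTM1 lies farthest to the right at 1.33 and ATG7 farthest to the left at −1.04.

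The 6 libraries held 20984851 to 23076388 counts, and 3 counts in a library, taken as the floor, corresponded to 0.130 to 0.143 CPM (counts scaled to a fixed library size). Every member lay above that floor in every library. The labels do not tie replicates to separate cultures, so the spread that the p-values rest on may be technical. The batch label was the same for every library. In bulk RNA, fewer cells of a type and less RNA per cell cannot be told apart. Fibroblast markers were expressed in every library. Their summed level was 13700 to 14100 CPM in UVB + sauchinone and 19000 to 20600 CPM in UVB. A large part was the collagen gene COL1A2, which reached 7160 CPM. Of the 10 markers 9 were lower (90%), beside 24.9% of all genes, and 1 did not pass. Macrophage markers, from cells rich in lysosomes, summed to 3.19 to 4.68 CPM in UVB + sauchinone and 2.60 to 3.53 CPM in UVB. The 3 of them that were tested did not pass, with log2 fold changes from 0.34 to 1.26. AIF1, TYROBP, C1QA, C1QB and C1QC had no count in any library. Keratinocyte markers summed to 27.3 to 29.4 CPM in UVB + sauchinone and 27.7 to 28.1 CPM in UVB, with KRT5, KRT1 and DSG3 at 0 throughout. Of the keratinocyte markers tested, SFN was higher, with 16, 22 and 12 counts in UVB + sauchinone and 1, 2 and 3 counts in UVB (edgeR adjusted p = 0.00035). LAMB3 was lower (log2 fold change −0.32, edgeR adjusted p = 0.029) and KRT10 did not pass. The melanocyte sum was 1.47 to 1.66 CPM in UVB + sauchinone and 1.82 to 2.49 CPM in UVB, with DCT at 0. MLANA was lower, with 12, 10 and 5 counts in UVB + sauchinone and 22, 33 and 21 counts in UVB (edgeR adjusted p = 0.0045), and PMEL did not pass. The endothelial sum was 2.38 to 3.36 CPM in UVB + sauchinone and 6.52 to 7.91 CPM in UVB, with CDH5 and KDR at 0. Most of that sum was TEK, with 63, 43 and 60 counts in UVB + sauchinone and 152, 131 and 155 counts in UVB (log2 fold change −1.47, edgeR adjusted p = 1.5e-06), while PECAM1, VWF and ERG had at most 10 counts in a library and were not tested. The part of these markers in the results below was not tested.

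Among the 3 members of the starting steps only ULK1, the gene of the kinase that starts autophagy, was called, as higher. That is 33.3%, beside 49.6% of all genes tested. ULK1 (chromosome 12 at 131894622 to 131923150, plus strand, GRCh38) had 37.1, 35.6 and 37.9 CPM in UVB + sauchinone, against 20.2, 20.7 and 18.8 CPM in UVB. The groups did not overlap, and the log2 fold change was 0.89 ± 0.096 (SE; edgeR adjusted p = 8.2e-08), or 1.85-fold. With a trend of counts with GC content removed the log2 value was 0.59, still called. BECN1 and ATG14, which encode subunits of the lipid kinase complex that acts next, did not pass. BECN1 averaged 82.0 ± 6.63 CPM in UVB + sauchinone and 81.2 ± 4.02 CPM in UVB (SD, n = 3 each), and the 95% interval of its log2 fold change ran from −0.16 to 0.19. ATG14 averaged 39.6 ± 2.67 CPM in UVB + sauchinone and 39.6 ± 2.88 CPM in UVB, with an interval from −0.20 to 0.19. BECN1 overlaps PSME3 on the other strand over 8966 bases, and the sources used here do not give whether counting used strand, so its level is uncertain.

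Of the 4 members that supply the membrane or read its lipid mark, 3 were higher (75%), beside 24.7% of all genes tested. ATG2A, whose product carries lipid from the endoplasmic reticulum into the growing membrane, had 42.1, 36.9 and 41.4 CPM in UVB + sauchinone and 20.3, 22.6 and 17.8 CPM in UVB. It rose by 0.99 ± 0.10 on the log2 scale (edgeR adjusted p = 6.1e-08), less than only SQSTM1 and NEU1 among the members. With the GC trend removed it was at 0.713, below GLA (0.862) and NPC1 (0.852) as well. ATG9A, the gene of the membrane-spanning lipid scramblase on vesicles that seed the autophagosome, had 46.7, 40.8 and 49.5 CPM in UVB + sauchinone and 30.3, 33.6 and 26.8 CPM in UVB. The groups of both genes were apart, with ATG9A at 0.59 ± 0.10 on the log2 scale. ATG9A shares 3359 bases on the same strand with the gene ENSG00000284820, which had 8 counts in all libraries together. WIPI2, which reads the lipid mark and recruits the conjugation complex, had 164, 166 and 163 CPM in UVB + sauchinone and 107, 114 and 91.4 CPM in UVB. Its rise was 0.66 ± 0.082 (edgeR adjusted p = 7.0e-07). WIPI1, the related lipid-mark reader, overlapped between the groups, at 50.6 ± 5.57 CPM in UVB + sauchinone and 56.1 ± 5.22 CPM in UVB (log2 fold change −0.15 ± 0.097, edgeR adjusted p = 0.21). WIPI1 was called lower, at −0.24, with the exonic size trend removed.

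Of the 6 members of the conjugation machinery 2 were higher (33.3%), 2 were lower (33.3%) and 2 did not pass. Of all genes tested 24.7% were higher and 24.9% lower. ATG16L1, the scaffold that places conjugation on the membrane, had 50.8, 52.9 and 46.5 CPM in UVB + sauchinone and 33.9, 34.8 and 32.8 CPM in UVB. It rose by 0.57 ± 0.090 on the log2 scale (edgeR adjusted p = 1.7e-05). ATG4B, the protease that trims and releases ATG8 proteins, averaged 54.5 ± 2.55 CPM in UVB + sauchinone and 39.3 ± 5.28 CPM in UVB, a rise of 0.47 ± 0.098, and 0.31 with the GC trend removed.

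ATG7, the gene of the enzyme that activates ATG8 proteins and ATG12, was the member with the largest fall. It had 12.5, 9.68 and 10.5 CPM in UVB + sauchinone, against 21.4, 24.8 and 21.1 CPM in UVB, with no overlap. Its level was 2.06-fold lower (−1.04 ± 0.12 on the log2 scale, edgeR adjusted p = 3.0e-07). ATG5, the partner that ATG12 is joined to, averaged 32.7 ± 3.17 CPM in UVB + sauchinone and 45.9 ± 4.74 CPM in UVB, or −0.49 ± 0.10 on the log2 scale (edgeR adjusted p = 0.00029). Both genes are long, at 285 kb for ATG7 and 280 kb for ATG5. When the trend of the counts with genomic span was removed, ATG7 stood at −0.24 (edgeR adjusted p = 0.11) and ATG5 turned to 0.31 (edgeR adjusted p = 0.0071). In that setting the largest fall of the members was that of CTSK, at −0.78. With the GC trend removed, ATG5 was at −0.25. ATG5 overlaps PRDM1 over 64517 bases and ATG7 overlaps VGLL4 over 1597 bases, each on the other strand. ATG3, the enzyme that hands ATG8 proteins to lipid, was at 67.1 ± 3.34 CPM in UVB + sauchinone and 72.8 ± 1.11 CPM in UVB (edgeR adjusted p = 0.24). ATG12 was at 113 ± 8.09 CPM in UVB + sauchinone and 105 ± 8.73 CPM in UVB (edgeR adjusted p = 0.30). ATG3 was called lower with the span trend removed (−0.19), and ATG12 was called higher with the exonic size or GC trend removed (0.23 and 0.34).

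Of the 4 ATG8 genes, MAP1LC3B alone was called, as higher. That is 25%, beside 49.6% of all genes tested. MAP1LC3B (chromosome 16 at 87383953 to 87404779, plus strand) encodes LC3B, the protein most used to follow autophagosomes. It had 552, 659 and 571 CPM in UVB + sauchinone, against 353, 370 and 349 CPM in UVB. All sauchinone libraries were above all UVB libraries, and the rise was 1.66-fold (log2 fold change 0.73 ± 0.074, edgeR adjusted p = 2.9e-08). Its near-identical copy MAP1LC3B2 had 69 to 165 counts per library, so a small share of reads could belong to either gene. FBXO31 overlaps MAP1LC3B over 8190 bases on the other strand. The GABARAP branch of the family, which acts later in closure and fusion, gave smaller values. GABARAPL1 was at 207 ± 11.7 CPM in UVB + sauchinone and 227 ± 9.45 CPM in UVB, every sauchinone library below every UVB library, without passing (log2 fold change −0.13, edgeR adjusted p = 0.13). It was called lower with a trend removed for span (−0.33), exonic size (−0.20) or GC content (−0.21) and without UVB replicate 3 (−0.17). GABARAP was at 62.2 ± 5.10 CPM in UVB + sauchinone and 64.5 ± 6.26 CPM in UVB, and was called lower with the span trend removed (−0.27). ENSG00000262526, with no count, overlaps GABARAP over 2023 bases on the same strand, so the level of GABARAP is uncertain. GABARAPL2 was at 82.8 ± 4.11 CPM in UVB + sauchinone and 77.7 ± 3.30 CPM in UVB (log2 fold change 0.092), and passed as higher with the GC trend removed (0.18). The 95% intervals were −0.29 to 0.02 for GABARAPL1, −0.24 to 0.14 for GABARAP and −0.08 to 0.26 for GABARAPL2, all below the 0.58 to 0.89 of MAP1LC3B.

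Among the 4 cargo receptors SQSTM1 was higher (25%) and the other 3 were lower (75%), beside 24.7% and 24.9% of all genes tested. SQSTM1 (chromosome 5 at 179806398 to 179838078, plus strand), whose product p62 binds ubiquitin-tagged cargo and LC3, was the largest rise of the 38 members. It had 1170, 1301 and 1246 CPM in UVB + sauchinone, against 512, 515 and 453 CPM in UVB. The groups lay far apart, with a 2.51-fold rise (log2 fold change 1.33 ± 0.071, edgeR adjusted p = 1.3e-12), above 97.7% of all genes tested. MRNIP and MGAT4B overlap SQSTM1 over 2946 and 555 bases on the other strand. SQSTM1 is known as a target of NRF2 as well as of the lysosomal transcription factors. The part of these factors in its rise here was not tested. NBR1, OPTN and TAX1BP1, which encode related receptors for ubiquitin-tagged cargo, were lower by 0.19 to 0.31 on the log2 scale.

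TAX1BP1 averaged 301 ± 23.0 CPM in UVB + sauchinone and 374 ± 28.4 CPM in UVB (log2 fold change −0.31 ± 0.076, edgeR adjusted p = 0.0016). OPTN averaged 255 ± 4.06 CPM in UVB + sauchinone and 293 ± 4.14 CPM in UVB (−0.20 ± 0.067, edgeR adjusted p = 0.016). NBR1 averaged 344 ± 10.6 CPM in UVB + sauchinone and 392 ± 16.1 CPM in UVB (−0.19 ± 0.068, edgeR adjusted p = 0.026). None of the 3 overlapped between the groups, and none passed when a fold change of at least 1.2 was required. JAZF1 overlaps TAX1BP1 over 13992 bases on the other strand. TAX1BP1 was at −0.077 with the span trend removed, −0.18 with the exonic size trend removed and −0.097 with the GC trend removed. NBR1 was at −0.084 with the exonic size trend removed and −0.032 with the GC trend removed. Without a single library, the adjusted p of NBR1 was 0.089 (UVB replicate 1), 0.088, 0.09 and 0.053 (UVB + sauchinone replicates 1, 2 and 3). For OPTN it was 0.066 without UVB replicate 1 and 0.089 without UVB + sauchinone replicate 1.

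**Figure D2:**
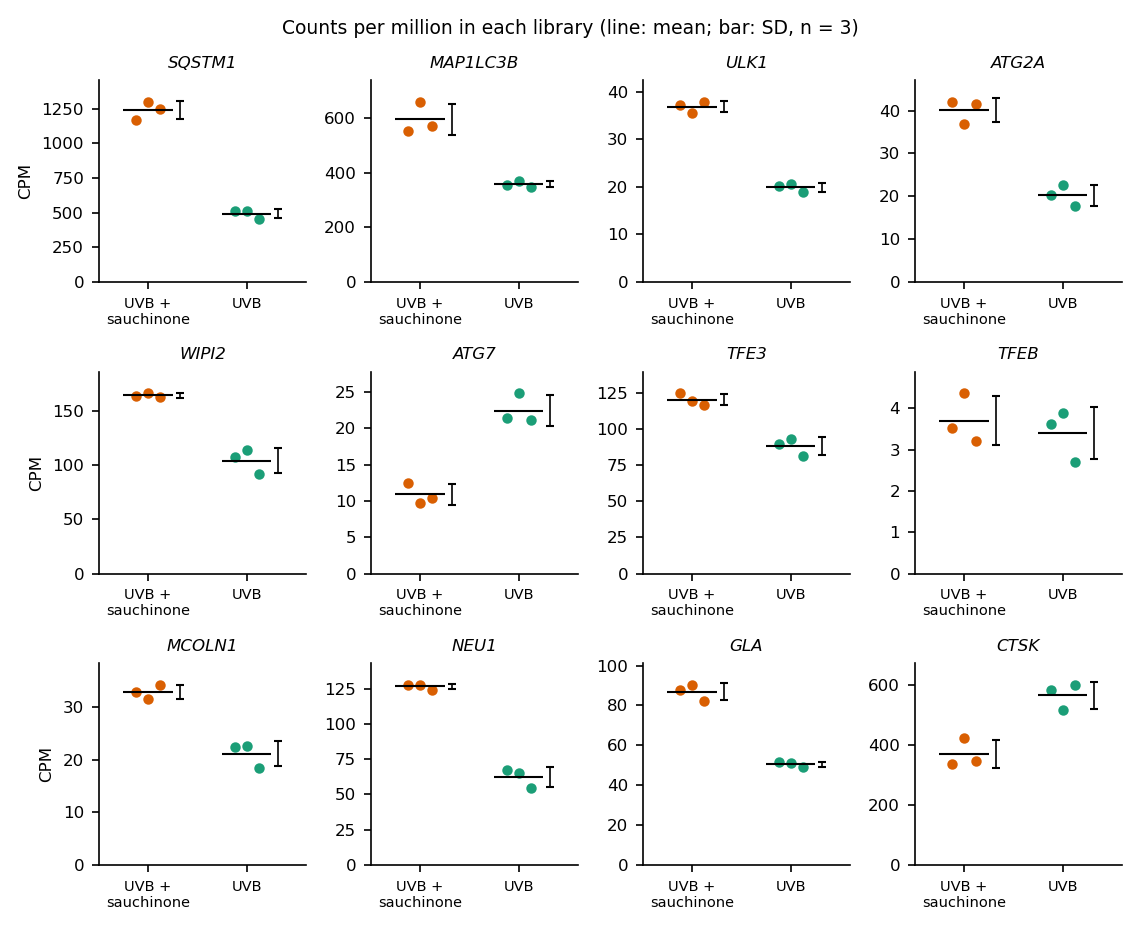
CPM of 12 members is shown in each library (points), with the mean (line) and SD (bar, n = 3), UVB + sauchinone at the left and UVB at the right of each panel, on linear axes from 0. The groups are apart in every panel except that of TFEB, and ATG7 and CTSK are the panels with UVB above.

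TFE3 and TFEB, the transcription factors of lysosome and autophagy genes, differed in level and in call. TFE3 had 125, 120 and 117 CPM in UVB + sauchinone and 89.7, 93.6 and 81.8 CPM in UVB. These groups did not overlap, and the log2 fold change was 0.45 ± 0.079 (edgeR adjusted p = 6.1e-05), 0.27 with the GC trend removed and 0.29 with the span trend removed. TFEB had 3.53, 4.36 and 3.21 CPM in UVB + sauchinone and 3.61, 3.89 and 2.69 CPM in UVB, which overlapped. Its 95% interval, from −0.31 to 0.56 on the log2 scale, was the widest of all members, and TFEB had only 61 to 101 counts per library. Per length, TFE3 stood at 29.1 FPKM in UVB + sauchinone and 20.6 FPKM in UVB, while TFEB stood at 0.56 FPKM in UVB + sauchinone and 0.50 FPKM in UVB. MITF, a further gene of this factor family, was looked up after its values were seen. It was lower, at 42.2 ± 0.47 CPM in UVB + sauchinone and 57.3 ± 4.66 CPM in UVB (log2 fold change −0.44, edgeR adjusted p = 0.00023), and turned to 0.24 with the span trend removed.

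Of the 6 members of the lysosomal membrane 3 were higher (50%) and 1 was lower (16.7%), beside 24.7% and 24.9% of all genes tested. NPC1 (chromosome 18 at 23506184 to 23586506, minus strand), which exports cholesterol from the lysosome, had 142, 141 and 135 CPM in UVB + sauchinone and 80.8, 80.6 and 80.2 CPM in UVB. The UVB libraries differed by less than 1 CPM, and the rise was 0.79 ± 0.075 on the log2 scale (edgeR adjusted p = 1.2e-08). NPC1 overlaps RMC1 over 25639 bases on the other strand. MCOLN1, the calcium channel of the lysosome, had 32.8, 31.5 and 34.2 CPM in UVB + sauchinone and 22.4, 22.6 and 18.4 CPM in UVB. It rose by 0.63 ± 0.10 (edgeR adjusted p = 2.3e-05), and by 0.39 with the GC trend removed. ATP6V0D1, a subunit of the membrane sector of the proton pump, had 139, 133 and 131 CPM in UVB + sauchinone and 94.8, 97.9 and 77.2 CPM in UVB, a rise of 0.58 ± 0.087. ATP6V1H, a regulatory subunit of the pump's cytosolic sector, was lower, at 97.2 ± 1.00 CPM in UVB + sauchinone and 114 ± 3.90 CPM in UVB (−0.23 ± 0.075, edgeR adjusted p = 0.013). With the span trend removed it was at 0.094, and with the GC trend removed at −0.076. Its call was also lost without UVB replicate 1 (edgeR adjusted p = 0.082), without UVB + sauchinone replicates 1 and 3 (0.055 and 0.056) and with a minimum fold change of 1.2 (0.60).

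LAMP1 and LAMP2, the glycoproteins that line the lysosome, did not pass. LAMP1 had 473 ± 24.8 CPM in UVB + sauchinone and 423 ± 22.5 CPM in UVB, every sauchinone library above every UVB library (log2 fold change 0.16 ± 0.070, edgeR adjusted p = 0.060). LAMP2 had 295 ± 11.2 CPM in UVB + sauchinone and 320 ± 24.4 CPM in UVB (−0.12 ± 0.073, edgeR adjusted p = 0.20). Both passed without UVB replicate 2, in opposite directions, at 0.18 and −0.18.

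Among the cathepsins, the proteases of the lumen, CTSL was higher, CTSK was lower and 3 did not pass. That is 20% higher and 20% lower, beside 24.7% and 24.9% of all genes tested. CTSK, the gene of cathepsin K, a protease that degrades collagen, had 337, 422 and 346 CPM in UVB + sauchinone and 581, 514 and 600 CPM in UVB. The groups were apart, and the log2 fold change was −0.62 ± 0.083 (edgeR adjusted p = 2.1e-06), or 1.53-fold lower. CTSK is short, at 14.7 kb, and 35.5% of the genes of similar span, from 6.94 to 18.9 kb, were higher and 11.8% lower. CTSL, a cysteine protease gene, averaged 474 ± 27.1 CPM in UVB + sauchinone and 347 ± 3.67 CPM in UVB, a rise of 0.45 ± 0.068 (edgeR adjusted p = 1.0e-05), and of 0.23 with the span trend removed. CTSB, the most abundant member per length in UVB, was at 1367 ± 58.8 CPM in UVB + sauchinone and 1415 ± 85.5 CPM in UVB (edgeR adjusted p = 0.56). It was called lower with the GC trend removed, at −0.23. CTSA, which protects other hydrolases in a complex, was at 145 ± 5.60 CPM in UVB + sauchinone and 131 ± 6.27 CPM in UVB (edgeR adjusted p = 0.11), and passed with the exonic size trend removed (0.26). CTSD, the aspartyl protease, was at 42.7 ± 1.78 CPM in UVB + sauchinone and 38.2 ± 6.0 CPM in UVB (edgeR adjusted p = 0.21). The level of CTSD is uncertain, because a further gene on the same strand, ENSG00000250644, overlaps it over 11203 bases and the treatment of shared reads is not given.

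NEU1 and GLA, the genes of 2 lysosomal glycosidases, rose. NEU1 (chromosome 6 at 31857659 to 31862905, minus strand), the sialidase that removes sialic acid, had 128, 128 and 124 CPM in UVB + sauchinone and 67.3, 65.3 and 54.6 CPM in UVB. It rose 2.03-fold (log2 fold change 1.02 ± 0.086, edgeR adjusted p = 1.8e-09), the second largest rise of the members. With the span trend removed NEU1 was at 0.795, below NPC1 (0.927), ATG2A (0.879) and ULK1 (0.809) as well. GLA, the alpha-galactosidase lost in Fabry disease, had 87.9, 90.4 and 82.2 CPM in UVB + sauchinone and 51.5, 51.1 and 49.2 CPM in UVB. Neither gene overlapped between the groups, and GLA rose by 0.78 ± 0.082 (edgeR adjusted p = 5.6e-08). RPL36A, a ribosomal protein gene on the other strand, overlaps GLA over 2883 bases. HEXA, a hexosaminidase subunit, was at 79.9 ± 4.54 CPM in UVB + sauchinone and 85.0 ± 4.56 CPM in UVB (log2 fold change −0.090, edgeR adjusted p = 0.38), and turned to 0.21, called, with the exonic size trend removed. HEXA is uncertain too, since ENSG00000260729 overlaps it over 35058 bases on the same strand. NPC2, the soluble cholesterol carrier that hands its cargo to NPC1, was at 169 ± 20.1 CPM in UVB + sauchinone and 169 ± 4.35 CPM in UVB, with a 95% interval from −0.17 to 0.17.

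The canonical site of TFEB and TFE3 is a palindrome with the core CACGTG, preceded by GT and followed by AC in its full form, and both forms read the same on both strands. Promoter windows from RefSeq (GRCh38.p14), from 250 bases before to 50 after a gene's start, were found for 33 of the 38 members, 43 windows in all. The core was present in 8 of these 43 windows (18.6%), beside 7.26% of 35116 windows of all genes. The full site, which contains the core, was present in 1 member, MCOLN1, and in 0.353% of all windows. The core was found in 3 of 15 higher members, MCOLN1, ATP6V0D1 and NEU1, in none of the 5 lower members with a window, and in 5 of 13 that did not pass. The stretches before the start of these 8 genes are printed 5′ to 3′ on the gene's strand, with the core in capitals. The first 3 belong to the genes that rose (MCOLN1 at chr19:7522544-7522623, plus; ATP6V0D1 at chr16:67481158-67481237, minus; NEU1 at chr6:31862822-31862961, minus).
MCOLN1: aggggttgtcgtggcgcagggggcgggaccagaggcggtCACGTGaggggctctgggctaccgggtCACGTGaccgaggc
ATP6V0D1: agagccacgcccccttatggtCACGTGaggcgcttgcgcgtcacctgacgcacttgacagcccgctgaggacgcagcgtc
NEU1: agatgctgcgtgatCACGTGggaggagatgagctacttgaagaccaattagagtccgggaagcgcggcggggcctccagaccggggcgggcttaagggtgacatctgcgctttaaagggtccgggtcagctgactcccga
The other 5 belong to genes that did not pass (LAMP1 at chr13:113297039-113297238, plus; CTSA at chr20:45891255-45891334, plus; CTSD at chr11:1763928-1764007, minus; ATG3 at chr3:112561963-112562042, minus; ATG14 at chr14:55411831-55411910, minus).
LAMP1: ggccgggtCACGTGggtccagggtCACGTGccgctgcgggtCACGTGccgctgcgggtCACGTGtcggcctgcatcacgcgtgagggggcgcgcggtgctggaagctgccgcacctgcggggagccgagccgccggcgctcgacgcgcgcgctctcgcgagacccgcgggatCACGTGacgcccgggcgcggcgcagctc
CTSA: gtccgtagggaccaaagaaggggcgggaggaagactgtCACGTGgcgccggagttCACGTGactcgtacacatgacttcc
CTSD: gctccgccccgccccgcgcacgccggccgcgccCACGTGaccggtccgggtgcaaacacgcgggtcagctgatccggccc
ATG3: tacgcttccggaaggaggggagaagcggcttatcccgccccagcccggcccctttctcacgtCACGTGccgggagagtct
ATG14: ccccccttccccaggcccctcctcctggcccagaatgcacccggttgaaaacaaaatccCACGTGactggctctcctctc
LAMP1 held the most copies of the core, 6 in its window, of which the last spans the start and is not shown whole. A second copy in ATG3 lies after its start and is not shown. A match is a description of these letters and was not tested as a binding site.

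Per length, the members spanned a wide range of levels. On the deposited FPKM scale (counts scaled by exonic size and library total), SQSTM1 was the most abundant member in UVB + sauchinone, at 167 FPKM, and rank 5 in UVB, at 64.4 FPKM. CTSB had rank 2 in UVB + sauchinone, at 131 FPKM, and rank 1 in UVB, at 132 FPKM. MAP1LC3B had rank 3 in both groups, at 120 FPKM in UVB + sauchinone and 69.7 FPKM in UVB. CTSK had rank 9 in UVB + sauchinone, at 44.2 FPKM, and rank 4 in UVB, at 65.8 FPKM. In UVB, LAMP1, MAP1LC3B, CTSK, SQSTM1 and NPC2 followed each other between 72.4 and 64.2 FPKM, and neighbours in that order differed by less than the larger of their SDs. The least abundant members were ATG7 and TFEB in both groups. The 38 members together held 0.798% to 0.843% of the counts of a UVB + sauchinone library and 0.668% to 0.696% of those of a UVB library.

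**Figure D3:**
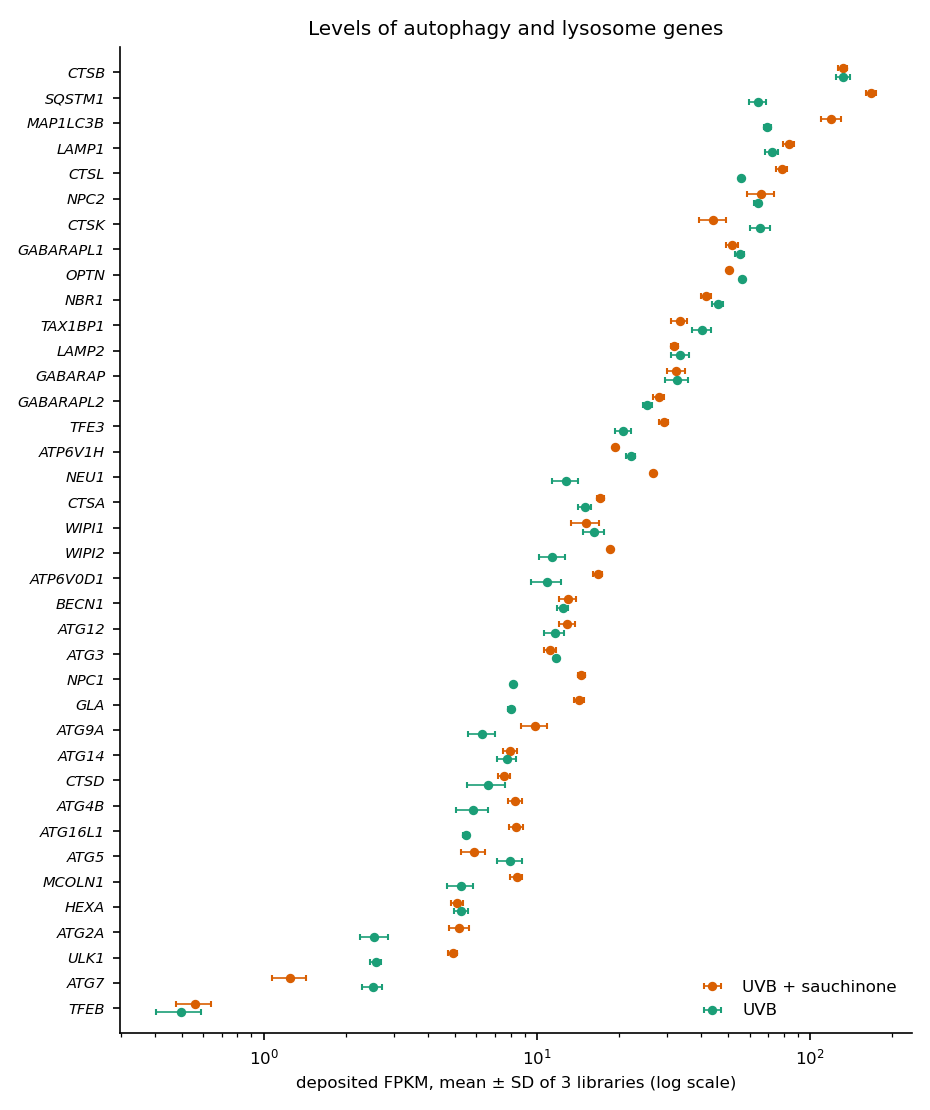
Deposited FPKM of the 38 members (mean ± SD, n = 3 per group) is plotted on a log axis in order of mean level, with UVB + sauchinone drawn above UVB in each row. SQSTM1 is at 167 FPKM in UVB + sauchinone and 64.4 FPKM in UVB, while CTSB is at 131 FPKM in UVB + sauchinone and 132 FPKM in UVB.

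Across all genes tested, the change moved with genomic span, and the members were read against it. Genes were ranked by span in 5 equal groups. In the group of the longest genes, from 88.8 to 2240 kb, 58.5% were lower and 7.99% higher, with a median log2 fold change of −0.44. The 4 members of that group, ATG7, ATG5, ATP6V1H and TAX1BP1, were all lower, with a median of −0.40. These are the 4 whose call was lost or turned when the span trend was removed. In the group next in length, from 40.1 to 88.7 kb, 20.7% of all genes were higher and 28.5% lower. Of its 8 members 4 were higher, NPC1, ATG16L1, WIPI2 and ATP6V0D1, and 1 was lower, NBR1. The members' median there was 0.35, and that of all genes of this span −0.069. In the 3 groups of shorter genes together 11 members were higher and 2, CTSK and OPTN, were lower. Of all genes in these groups, shortest first, 29.4%, 35.5% and 29.7% were higher and 8.15%, 11.8% and 17.6% lower, so higher calls outnumbered lower calls there among all genes too. Median span was 27.8 kb for the members and 28.0 kb for all genes tested. The cause of the trend with span was not tested.

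**Figure D4:**
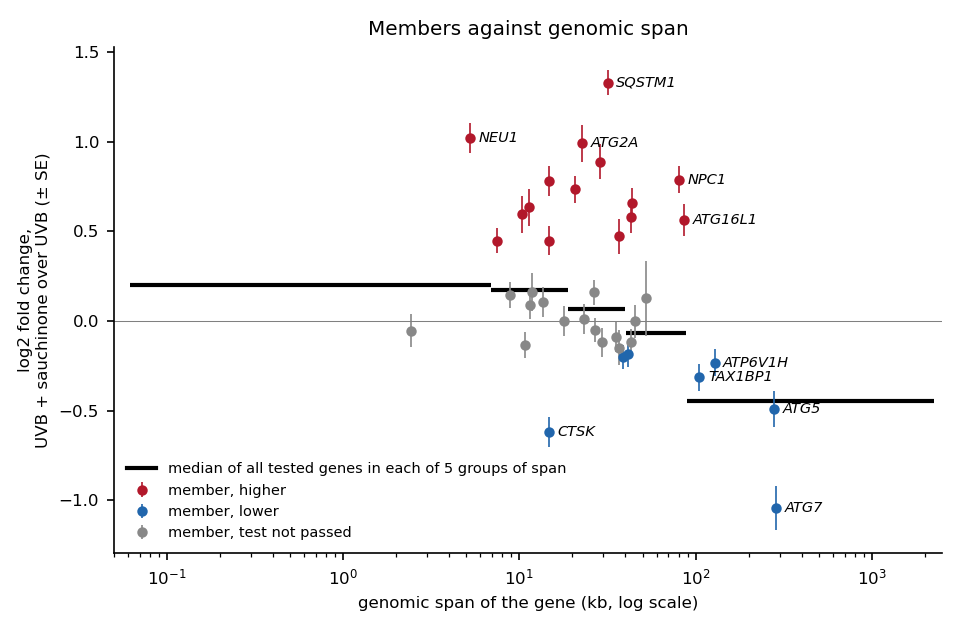
The log2 fold change of each member (UVB + sauchinone over UVB, ± SE) is plotted against its genomic span on a log axis, and black lines give the median of all tested genes in each of 5 equal groups of span. The 4 members beyond 88.8 kb are all lower, beside a median of −0.44 for genes of that length.

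Further genes of the same routes, 160 in 7 lists, moved in both directions. These lists too were chosen with earlier results of these data known. Of the 154 tested, 42 were higher (27.3%), 37 lower (24%) and 75 did not pass. That is 51.3% called, beside 49.6% of all genes, of which 24.7% were higher and 24.9% lower. The median log2 fold change of the 154 genes was −0.013. Among 30 further autophagy machinery genes 11 were higher (36.7%) and 6 lower (20%, median −0.051). ATG101, a partner of ULK1 in the starting complex, rose by 0.96 ± 0.10, and PLEKHM1, an adaptor for fusion with the lysosome, by 0.75 ± 0.10. EPG5, a tether for that fusion, fell by 0.64 ± 0.075 and ATG4C, a relative of ATG4B, by 1.39 ± 0.17 on the log2 scale. EPG5 was at −0.17 with the span trend removed and −0.24 with the exonic size trend removed, still called. Of 15 further receptors and scaffolds of selective autophagy 5 were higher (33.3%) and 4 lower (26.7%, median 0.12). NCOA4, the receptor for ferritin, had 755 ± 33.6 CPM in UVB + sauchinone and 533 ± 11.3 CPM in UVB, a rise of 0.50 ± 0.066, and BNIP3, a mitophagy receptor, rose by 0.35 ± 0.078, or by 0.19 with the span trend removed. CCPG1, a receptor for the endoplasmic reticulum, fell by 0.68 ± 0.12, and was at −0.45 with the GC trend removed. WDFY3, a scaffold for protein aggregates that spans 297 kb, fell by 0.76 ± 0.084 and turned to 0.070 with the span trend removed. With the exonic size trend removed WDFY3 was at −0.43.

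Among 39 further lysosomal hydrolases and cofactors 5 were higher (12.8%), 12 lower (30.8%) and 22 did not pass (median 0.0077). Of all genes tested 24.7% were higher and 24.9% lower. LIPA, the acid lipase that releases cholesterol and fatty acids in the lysosome, had 407 ± 15.2 CPM in UVB + sauchinone and 761 ± 11.9 CPM in UVB. It fell by 0.90 ± 0.066 on the log2 scale (edgeR adjusted p = 1.7e-10), and MANBA, the beta-mannosidase, fell by 0.67 ± 0.094. With the span trend removed LIPA was at −0.31 and MANBA at −0.33, both still called. PLA2G15, a lysosomal phospholipase, rose by 0.62 ± 0.089 and LGMN, the protease legumain, by 0.41 ± 0.071. Of 23 further lysosomal membrane genes 6 were higher and 6 lower (26.1% each, near the shares of all genes, median −0.023). CTNS, the cystine exporter, rose by 0.66 ± 0.13 and SLC36A1, an amino acid transporter, by 0.45 ± 0.085. GPNMB, a glycoprotein induced by lysosomal stress in macrophages, fell by 0.70 ± 0.079, and TMEM106B by 0.40 ± 0.090, which was −0.13 and not called with the exonic size trend removed and −0.23 with the GC trend removed.

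Of 19 further proton pump genes 6 were higher, none was lower and 13 did not pass (median 0.013). That is 31.6% called, all higher, beside 49.6% of all genes called, 24.7% higher and 24.9% lower. ATP6V0C, the main proton-carrying ring subunit, had 30.4 ± 2.29 CPM in UVB + sauchinone and 14.4 ± 2.60 CPM in UVB, a rise of 1.08 ± 0.12, and ATP6V0B, another ring subunit, rose by 0.90 ± 0.092. Of 9 genes that sort enzymes to the lysosome 5 were higher (55.6%) and 3 lower (33.3%, median 0.24). M6PR, a mannose 6-phosphate receptor, rose by 0.31 ± 0.073, and GGA3, an adaptor for it, by 0.44 ± 0.11. M6PR was at 0.11, not called, with the span trend removed, and GGA3 at 0.27 with the GC trend removed. SORT1, the sorting receptor sortilin, fell by 0.82 ± 0.075, and GNPTAB, the enzyme that makes the mannose 6-phosphate tag, by 0.68 ± 0.087. Of 19 tested genes of the MiT factors and of nutrient sensing at the lysosome 4 were higher (21.1%) and 6 lower (31.6%, median −0.039). FLCN, the folliculin gene that controls TFEB and TFE3 through the RAG proteins, rose by 0.47 ± 0.094, and RRAGA, one of these RAG proteins, by 0.47 ± 0.083. FLCN was at 0.27 with the GC trend removed and RRAGA at 0.27 with the span trend removed, both still called. PRKAA1, a catalytic subunit of the energy sensor AMPK, fell by 0.40 ± 0.077, and was at −0.20 with the GC trend removed. RPTOR, the raptor subunit of mTORC1, fell by 1.04 ± 0.13 and, at a span of 422 kb, was at −0.031 with the span trend removed. With a minimum fold change of 1.2, the calls of BNIP3, TMEM106B, M6PR and GGA3 were lost (edgeR adjusted p = 0.11, 0.066, 0.24 and 0.056).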

How the data were processed

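RNA was sequenced from 6 libraries, 3 in each group, and the authors deposited raw counts per gene, FPKM values and exonic sizes. The submitters' processing notes name the build GRCh38. No aligner, counter, annotation or use of strand is stated in the labels or file header. Within 0.006, 100% of the FPKM values deposited by the authors equalled counts divided by exonic size and library total, and FPKM served only to compare levels between genes.

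The test was run on the deposited counts with edgeR 4.0.16 in R 4.3.3 (filterByExpr, TMM, quasi-likelihood test without covariates, two-sided). Each SE is the size of the log2 fold change over the root of F, and CPM is from TMM-scaled library sizes, except the floor and the marker sums, which use plain library totals. The members, lists and roles were chosen with earlier results of these data known. CPM in every library is given for members called with an absolute log2 fold change of at least 0.5 and for MAP1LC3B, SQSTM1, TFEB and TFE3. From each further list the 2 higher and 2 lower genes with the smallest p are named, at a mean of at least 1 CPM. Alternatives used DESeq2 1.42.0, limma 3.58.1 (voom), other normalizations and filters, the replicate block, a minimum fold change of 1.2, each library left out, and offsets removing a trend (lowess fraction 0.3) with span, exonic size or, chosen after seeing the data, GC content of GENCODE transcripts.

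On simulated data (15704 genes, 200 changed) the test recovered 58.2% of genes changed 1.5-fold, 80.6% changed 2-fold and 95.5% changed 4-fold, and 9 of 165 calls were false. In the real data 49.6% of the genes tested were called, far more than were changed here, so these rates may not hold there.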

Additional observations from a re-analysis of the deposited data

How the results depend on the processing

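Over the 17 alternatives, 15 to 18 members were higher and 3 to 8 lower. A minimum fold change of 1.2 left 3 lower members and 4980 of all genes called. Leaving out each library in turn gave 4 to 8 lower members, 15 to 16 higher members and 6718 to 7914 genes called. The replicate block gave 15 higher and 7 lower members and 7280 genes called, and changed no member's call. Same-numbered libraries did not deviate together (correlations 0.0072, −0.078 and −0.031). With 3 libraries per group this cannot show whether the samples were paired by design. No normalization moved the median of all genes by over 0.1 on the log2 scale. Each of them centres the bulk of genes, so this cannot show that the centring is right.

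Some signs turned, and the cause was not tested. With the span trend removed, ATG5 turned to 0.31, ATP6V1H to 0.094, ATG14 to 0.0075, WDFY3 to 0.070 and MITF to 0.24, and BECN1 to −0.094, ATG12 to −0.069, GABARAPL2 to −0.097, CTSA to −0.061, CTSD to −0.021 and NPC2 to −0.14. With the exonic size trend removed, HEXA turned to 0.21, LAMP2 to 0.029 and CTSB to 0.13, and GABARAPL2 to −0.024 and NPC2 to −0.15. With the GC trend removed, ATG14 turned to 0.16, ATG3 to 0.039 and LAMP2 to 0.12, and TFEB to −0.14, CTSA to −0.043, CTSD to −0.11 and NPC2 to −0.014. NPC2 was also at −0.0014 (RLE), −0.0097 (upper quartile), −0.0014 (DESeq2), −0.0054 (limma-voom), −0.0050 (no filter) and −0.0053 (replicate block). With each library left out in turn, BECN1 ran from −0.056 to 0.059, ATG14 from −0.064 to 0.056, GABARAP from −0.13 to 0.015, TFEB from −0.023 to 0.23 and NPC2 from −0.093 to 0.084. Of the 16 members that did not pass, 11 passed under at least 1 alternative and 5 under none. Of 27 further named genes, 20 kept their call and direction throughout. At this depth TFEB, with 61 to 101 counts per library, is the member whose change is least well measured.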
